A study of Mus musculus with 12 samples.

Results

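The negative limb of the circadian clock was examined in mouse liver through 10 genes: Per1, Per2, Per3, Cry1, Cry2, Ciart, Bhlhe40, Bhlhe41, Csnk1d and Csnk1e. Every array probe set whose platform gene symbol is 1 of these names was taken, and each is reported separately. This gave 24 probe sets of the 45037 on the array that are not controls, and 10 of the 18193 genes with a probe set of exactly 1 symbol. No probe set with several symbols held a member. 23 of the 24 passed the filter on low values and entered the tests, which ran over 28344 probe sets. The probe sets of a gene share its transcripts and are not replicates of each other.

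Livers of 12 male mice were hybridised to Affymetrix arrays, 3 mice in each of 4 groups. Untreated wild-type mice of Jcl:ICR background ate the plain diet. Wild-type mice of that background, PPARα-null mice and Clk/Clk mutant mice of Jcl:ICR background ate that diet with bezafibrate mixed in at 0.5% by weight, over 5 days. Bezafibrate is a fibrate that activates PPARα, a nuclear receptor of lipid metabolism. The null mice came from crossing 129S4SvJae-PPARalphatm1Gonz/J with Jcl:ICR, so their genotype and their share of another strain cannot be told apart. All mice were 6 to 12 weeks old, lived under 12 h of light and 12 h of darkness, and gave their livers at ZT14, that is 14 h after lights on. Both mutations are carried in every cell of the body, and both mutants were measured on the drug only, so a genotype difference at rest and a changed drug response cannot be told apart. 1 time of day was sampled, so a change of level and a shift of phase cannot be told apart either. The labels name no litter, cage or array batch, and the p-values measure the spread between these mice.

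In the clock of mammals, CLOCK and its partner BMAL1 (gene Arntl) bind E-box sequences and switch on the Per and Cry genes. PER and CRY proteins gather in complexes, return to the nucleus and block CLOCK and BMAL1, so that their own transcription falls until they are degraded. The kinases CK1δ (Csnk1d) and CK1ε (Csnk1e) phosphorylate PER proteins and set how long they last, while CIART (also called CHRONO) and the DEC proteins (Bhlhe40 and Bhlhe41) are further repressors at E-boxes. In liver this loop paces many metabolic genes. The Clk allele encodes a CLOCK protein that still pairs with BMAL1 but activates transcription poorly. The study asked which PPARα-regulated genes need CLOCK, at a time chosen for high CLOCK and BMAL1 activity.

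The deposited values are log2 signals, so a difference of 1 is a doubling, and levels of different probe sets cannot be compared with each other. Throughout, called means a limma p below 0.05 after Benjamini-Hochberg adjustment over the 28344 probe sets, together with a change of 1.5-fold or more. The arrays had medians of 5.45 to 5.50, arrays of a group correlated at 0.993 to 0.996 across probe sets, and the filter level was 4.87 to 4.92. Of 8 hepatocyte markers 7 were on the array, none under the filter. Their summed signal was 17.02 to 17.09 (log2) in untreated wild type, 16.69 to 16.74 in treated wild type, 16.87 to 16.95 in null and 16.82 to 16.85 in Clk/Clk mice. Markers of this and other cell types that were called are counted at the end of each comparison, and their part in the member differences was not tested. In bulk liver, fewer cells of a type and less RNA per cell cannot be told apart.

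The RefSeq promoter table (build GRCm38.p6) held a window for 7 of the 10 genes. It held none for Per2, Bhlhe40 and Csnk1d. The 250 bases before each annotated start were searched on both strands for the E-box CACGTG, the related E-prime box CACGTT, the D-box TTATGTAA and its other spelling TTACGTAA, the cAMP response element TGACGTCA, the PPARα response element AGGTCANAGGTCA and, by name, the RORE. None of these motifs contains another of them. 4 of the 7 genes had an E-box, against 6.86% of 27025 genes in the table. Ciart had 3 of them, beginning at -116, -58 and -44 from the start. Cry1 had 1 at -60 to -55, next to an E-prime box at -79 to -74 on the other strand. Per1 had 1 at -166 to -161 before its first start, and Bhlhe41 had 1 at -153 to -148. Cry2 had an E-prime box on the other strand at -166 to -161, a motif found in 4.50% of genes. Per3 had the D-box at -205 and again at -158, a motif found in 0.977% of genes. The second start of Per1 and the 4 starts of Csnk1e had no match, and no member's window held the cAMP response element (1.77% of genes), TTACGTAA (0.118%), the PPARα response element (0.0407%) or the RORE (0.185%). A match describes letters in the window, not binding, and no match says only that these letters are not in it. The 5 windows below belong to members with a called change and a match. They run 5′ to 3′ toward the gene on the strand given, with the matched letters in capitals (AACGTG is CACGTT read on the other strand).
Ciart, chr3:95882229-95882478, minus strand: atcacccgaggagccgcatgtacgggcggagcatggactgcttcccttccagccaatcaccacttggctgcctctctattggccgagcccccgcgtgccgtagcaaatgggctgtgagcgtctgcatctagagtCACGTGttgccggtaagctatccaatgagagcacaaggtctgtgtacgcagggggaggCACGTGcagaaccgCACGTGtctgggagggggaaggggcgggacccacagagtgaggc
Cry1, chr10:85185055-85185304, minus strand: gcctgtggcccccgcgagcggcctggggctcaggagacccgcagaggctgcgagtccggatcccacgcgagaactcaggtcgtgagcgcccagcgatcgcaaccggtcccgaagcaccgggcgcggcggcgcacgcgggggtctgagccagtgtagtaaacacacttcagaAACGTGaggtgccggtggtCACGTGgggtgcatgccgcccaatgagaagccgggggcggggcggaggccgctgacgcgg
Per1, chr11:69098699-69098948, plus strand: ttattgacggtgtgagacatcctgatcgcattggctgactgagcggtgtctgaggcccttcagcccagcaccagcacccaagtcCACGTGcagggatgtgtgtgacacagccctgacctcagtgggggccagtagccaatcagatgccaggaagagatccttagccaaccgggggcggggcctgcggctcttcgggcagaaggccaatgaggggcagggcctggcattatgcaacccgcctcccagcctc
Cry2, chr2:92434070-92434319, minus strand: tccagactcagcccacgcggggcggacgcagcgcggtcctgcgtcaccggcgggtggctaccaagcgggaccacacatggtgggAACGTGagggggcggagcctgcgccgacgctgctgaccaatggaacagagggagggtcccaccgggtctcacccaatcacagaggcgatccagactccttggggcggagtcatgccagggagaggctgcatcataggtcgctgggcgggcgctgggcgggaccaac
Per3, chr4:151044666-151044915, minus strand: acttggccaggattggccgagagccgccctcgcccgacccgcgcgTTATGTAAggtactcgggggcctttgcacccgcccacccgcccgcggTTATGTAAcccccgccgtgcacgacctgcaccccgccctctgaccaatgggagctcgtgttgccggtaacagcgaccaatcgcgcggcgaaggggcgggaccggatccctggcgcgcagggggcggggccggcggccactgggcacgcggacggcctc

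**Figure D1:**
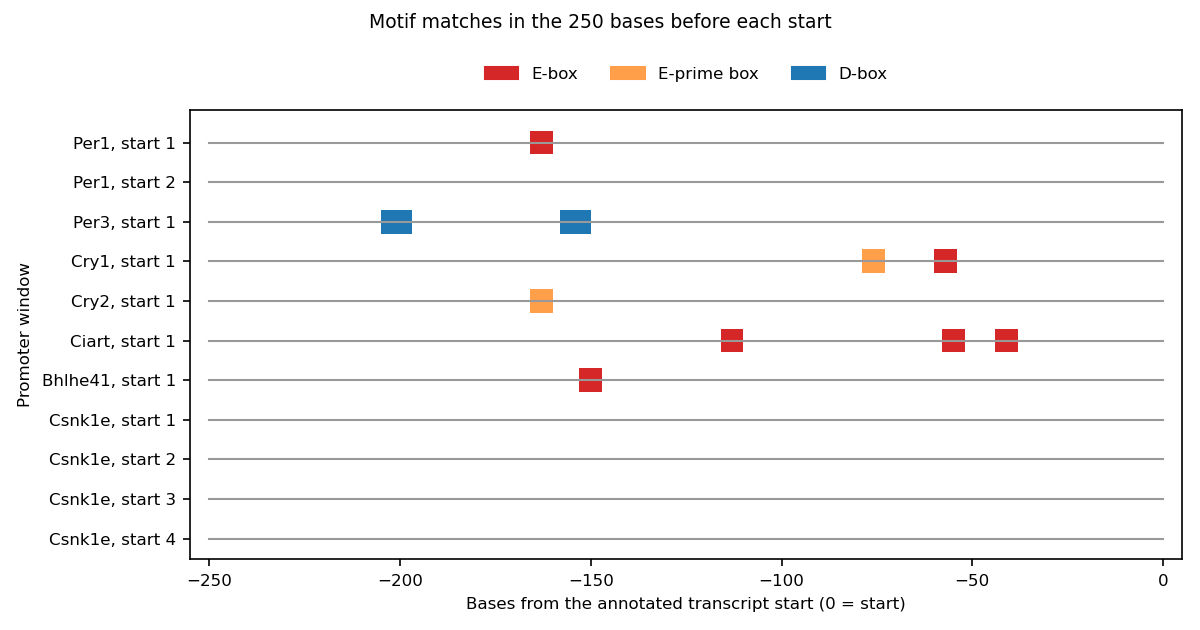
Positions of motif matches in the promoter windows of members in the RefSeq table, in bases from the annotated start (x axis), with 1 line per start. Ciart carries 3 E-boxes between -116 and -39, Per3 carries a pair of D-boxes, and the second start of Per1 and the 4 starts of Csnk1e carry no match.

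The first comparison asked what bezafibrate did in wild-type liver. Per1, Cry1, Cry2, Ciart and 1 probe set of Per2 fell, with Cry1 and Per1 falling by more than 2-fold. A probe set of Csnk1e rose. Per3, Bhlhe40, Bhlhe41 and Csnk1d had no called probe set. Called member probe sets thus numbered 6 of 23 (26.1%), against 19.3% of all tested. 5 were lower and 1 higher, against 8.14% lower and 11.2% higher over all. The median member difference was -0.14, beside -0.02 over all probe sets. For 10 of 23 the groups did not overlap, against 54% of all, so separation of the groups was no more frequent among the members than over the array.

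Cry1 and Cry2 encode cryptochromes, the chief repressors of CLOCK and BMAL1. Cry1 (1433733_a_at) read 8.01, 7.89 and 7.84 in the untreated mice and 6.11, 6.26 and 6.88 in the treated mice. Every treated mouse lay about 1 log2 unit or more below every untreated mouse. The difference was -1.50 (SE 0.164, 95% interval -1.86 to -1.14, limma adjusted p = 2.23e-05), a 2.82-fold fall. Cry2 (1426383_at) read 7.75, 7.73 and 7.58 untreated and 7.18, 7.0 and 6.88 treated. The groups were again apart, by a smaller step of -0.67 (SE 0.113, limma adjusted p = 5.44e-04), or 1.59-fold.

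The PERIOD proteins are the partners of the cryptochromes, and PER abundance limits the repressor complex. Per1 (1449851_at) read 8.62, 8.29 and 8.13 untreated and 6.95, 7.38 and 6.74 treated. The groups did not overlap, and the difference was -1.32 (SE 0.214, limma adjusted p = 3.95e-04), a 2.50-fold fall. Without 1 mouse at a time it ran from -1.50 to -1.18 and stayed called.

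Per2 was read by 3 probe sets, and their means fell by similar steps while the calls differed. The brightest (1417602_at) read 9.04, 9.01 and 8.70 untreated and 8.40, 8.27 and 8.50 treated, without overlap. Its difference was -0.52 (SE 0.341, 95% interval -1.27 to 0.22, limma adjusted p = 0.236). That SE is the pooled one, and the Clk/Clk mice, which spread most on this probe set (SD 0.923), enter it. The second (1457350_at) read 7.66, 7.85 and 7.66 untreated and 7.08, 7.34 and 6.89 treated, a called difference of -0.62 (SE 0.192, limma adjusted p = 0.0210). This call was lost without treated mouse 1 (adjusted p = 0.0519), treated mouse 3 (0.0769) or untreated mouse 2 (0.0696). The dimmest (1417603_at) differed by -0.50 (SE 0.124, limma adjusted p = 0.00613), under 1.5-fold.

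Per3, whose protein is the least needed of the PERIOD proteins for rhythms, was read by 6 probe sets, and none was called. On the brightest (1421087_at) the untreated mice read 8.24, 8.63 and 8.27 and the treated mice 8.24, 8.21 and 8.0. The groups overlapped only narrowly, since the lowest untreated mouse read 8.2423 and the highest treated mouse 8.2425. The difference was -0.23 (95% interval -0.80 to 0.34, limma adjusted p = 0.495). Its SE is the pooled one, and the Clk/Clk mice, which spread most on this probe set (SD 0.700), enter it. The 6 differences ran from -0.24 to 0.18, 4 of them below 0.

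Ciart encodes a repressor that is itself driven through E-boxes. Its probe set (1435188_at) read 8.36, 7.65 and 7.43 untreated and 6.79, 7.34 and 6.72 treated. The lowest untreated mouse stood only slightly above the highest treated one, and the difference was -0.86 (SE 0.245, limma adjusted p = 0.0135). The call was lost without treated mouse 3 (-0.75, adjusted p = 0.0506) or untreated mouse 1 (-0.59, adjusted p = 0.0509). With treated mouse 3 left out, 3 member probe sets were lower in place of 5.

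Bhlhe40 encodes DEC1, which competes for E-boxes. Its probe set (1418025_at) read 11.10, 11.32 and 11.06 untreated and 10.12, 11.37 and 10.31 treated. Treated mouse 2 was above all untreated mice while its 2 group mates were below them. The difference of -0.56 (95% interval -1.12 to 0.00, limma adjusted p = 0.0974) was not called, but without that mouse it was -0.94 (adjusted p = 3.24e-04). Bhlhe41 (1421099_at), the gene of DEC2, stayed near the filter level with group means of 4.91 to 5.12, and its second probe set (1457096_at) was under the filter on all arrays and was not tested.

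The CK1 kinases moved little on most of their probe sets. Csnk1e (1417176_at) read 5.72, 6.26 and 6.19 untreated and 6.69, 7.16 and 6.89 treated. The treated mice were all higher, by 0.86 (SE 0.147, limma adjusted p = 6.15e-04). Its 2 other probe sets differed by 0.18 and 0.02 and were not called, so the 3 probe sets of this gene disagree. Csnk1d had 5 probe sets with differences of -0.41 to 0.06. The lowest (1456727_a_at, SE 0.0649, limma adjusted p = 3.37e-04) passed the p but not the 1.5-fold limit.

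**Figure D2:**
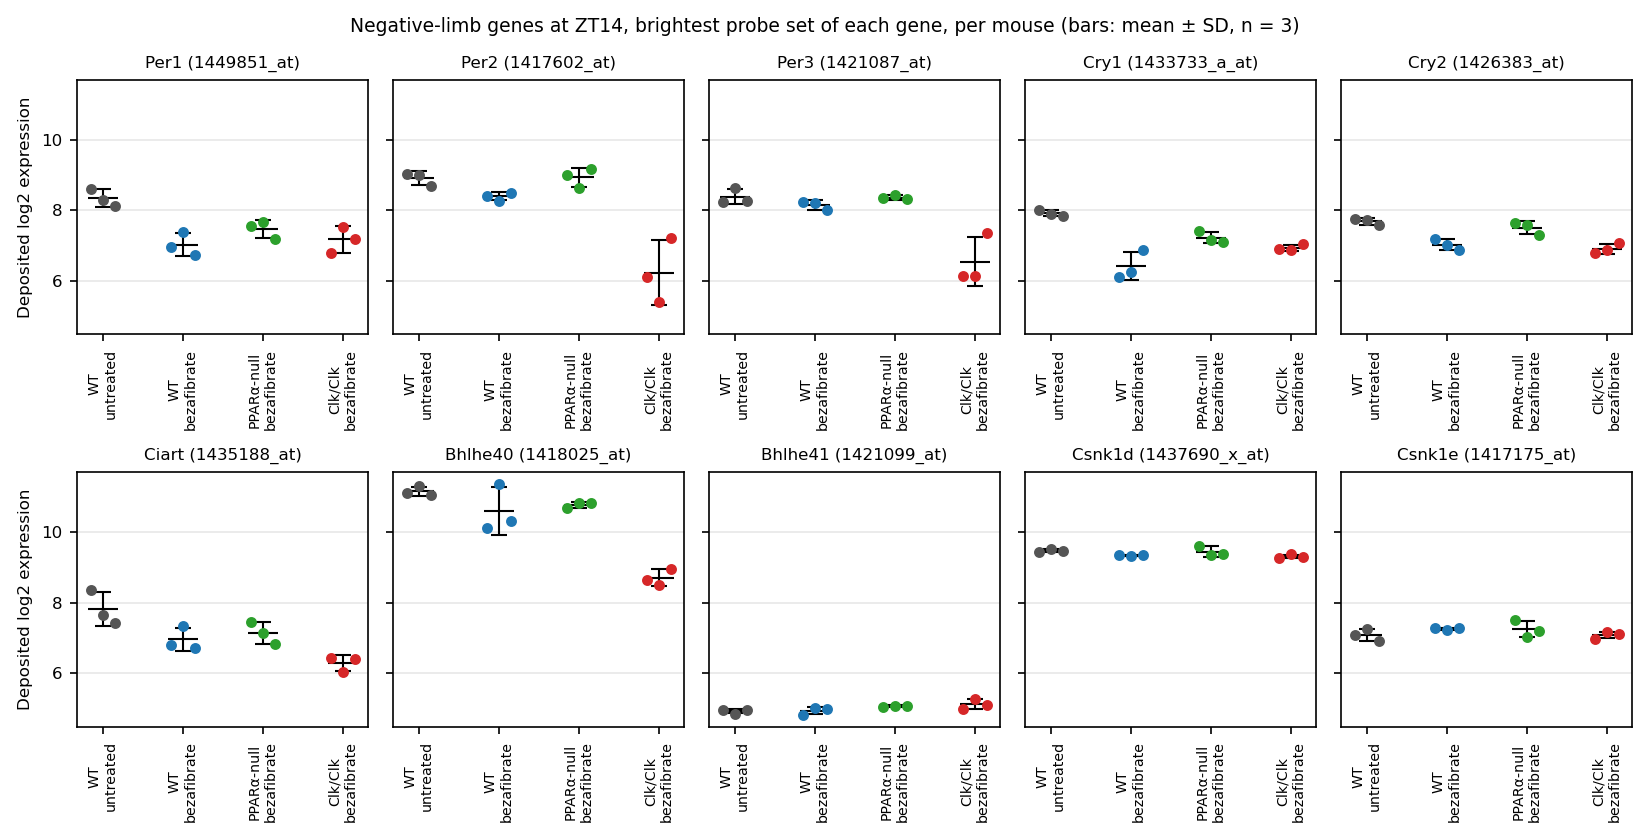
Deposited log2 expression (y axis) of the brightest probe set of each of the 10 genes in every mouse, by group (x axis), with bars for mean ± SD (n = 3). Cry1, Per1 and Cry2 drop between untreated and treated wild type, while Per2, Per3 and Bhlhe40 are lowest in Clk/Clk mice.

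Cell type markers moved in the same contrast. Of 7 hepatocyte markers 3 were lower, Tat (-1.64), Cps1 (-1.24) and Hnf4a (-0.69). Of 8 sinusoidal endothelial markers 2 were lower (Stab2 -0.86, Clec4g -0.69), and of 7 stellate cell markers 2 (Hand2 -1.16, Reln -0.99). Of 10 Kupffer cell and macrophage markers 1 was higher (Cd68 0.90), and of 3 tested cholangiocyte markers 1 (Sox9 0.82). The 1 tested blood marker, Alas2, was lower (-0.77), no lymphocyte or granulocyte marker of 6 was called, and of 3 tested adipocyte or pancreas markers Pnliprp1 was higher (2.47) and Cela1 lower (-1.73).

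The second comparison set PPARα-null against wild-type mice, all on bezafibrate. It shares the treated wild-type arrays with the first, so the values are given side by side and no agreement is drawn from them. Cry1 was higher in the null mice, and no other member was called in either direction, which is 1 of 23 probe sets (4.35%) against 12.4% of all tested. Over all probe sets 4.99% were higher and 7.42% lower. The median member difference was 0.19, beside 0.02 over all. Groups did not overlap for 10 of 23 members, against 46.1% of all.

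In the null mice Cry1 read 7.40, 7.16 and 7.11, above all 3 treated wild-type mice and below all untreated ones. The difference from treated wild type was 0.80 (SE 0.164, limma adjusted p = 0.00325), or 1.75-fold, and it ran from 0.65 to 1.04 with 1 mouse left out at a time. Cry2 read 7.64, 7.58 and 7.30, also above the treated wild type without overlap. It was higher by 0.48 (SE 0.113, limma adjusted p = 0.00709), under 1.5-fold, and was called without null mouse 3 (0.59, adjusted p = 0.00351).

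Per2 read 9.01, 8.63 and 9.17 in the null mice on its brightest probe set, above every treated wild-type mouse and overlapping the untreated mice. The differences from treated wild type on the 3 probe sets were 0.54, 0.52 and 0.42, with limma adjusted p of 0.255, 0.0596 and 0.0249 and none called. Without treated wild-type mouse 2 the second probe set was called, at 0.64. Per1 read 7.56, 7.66 and 7.19, overlapping treated wild type, with a difference of 0.45 (95% interval -0.02 to 0.91, limma adjusted p = 0.137). Ciart read 7.44, 7.13 and 6.83 and differed by 0.19 (95% interval -0.35 to 0.72). Bhlhe40 read 10.69, 10.84 and 10.83 and differed by 0.18 (95% interval -0.38 to 0.74), so changes in either direction remain within the interval for both repressors. Of the kinases, 2 Csnk1d probe sets were higher at under 1.5-fold. These were 1415825_s_at at 0.38 (limma adjusted p = 0.0139) and 1449932_at at 0.36 (limma adjusted p = 0.0283). Csnk1e (1417176_at) read 6.87, 6.81 and 6.68, overlapping the treated wild-type values.

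Among markers in null against treated wild type, 2 of 7 hepatocyte genes were higher, Cps1 (0.98) and Tat (0.84), and 1 of 8 endothelial (Stab2 0.83). Of 10 macrophage markers 2 were lower, Marco (-0.76) and Cd68 (-0.68), while the list's median was 0.03. Of 7 stellate markers 1 was lower (Lrat -0.61, list median -0.36). Of 3 tested cholangiocyte markers 1 was lower (Sox9 -0.69, list median 0.20), and of 3 tested adipocyte or pancreas markers 1 (Pnliprp1 -2.82). Of 6 lymphocyte and granulocyte markers S100a8 was higher (1.84) and S100a9 lower (-1.59), and the blood marker was not called.

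Set against untreated wild type, the treated null mice had lower Per1 and Cry1 and higher Csnk1e (1417176_at), which is 3 of 23 (13.0%) against 6.69% of all. 2 were lower, against 3.34%, and 1 higher, against 3.35%. Per1 differed by -0.88 (SE 0.214, limma adjusted p = 0.0147) and Cry1 by -0.69 (limma adjusted p = 0.0127), each with all null mice below all untreated mice. Without null mouse 3 neither was called (adjusted p = 0.0639 and 0.0515), so none of the members was then lower, and Per1 was not called without untreated mouse 1 (0.0555). Csnk1e (1417176_at) differed by 0.73 (limma adjusted p = 0.00577), and by 0.56, under 1.5-fold, without untreated mouse 1. Without untreated mouse 3 Ciart was called as well (-0.87). Groups did not overlap for 10 of 23 members, against 37.9% of all. Per2 (1417602_at) stood at 8.93 against 8.92, and Per3 (1421087_at) at 8.36 against 8.38. Called lower were 1 of 7 hepatocyte markers (Tat -0.80), the 1 tested blood marker (Alas2 -0.92) and 1 of 3 tested adipocyte or pancreas markers (Cela1 -1.70). Called higher was 1 of 6 lymphocyte and granulocyte markers (S100a8 2.89). This contrast changes drug, genotype and strain background together.

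The third comparison set Clk/Clk against wild-type mice on bezafibrate, and it again shares the treated wild-type arrays. Per2, Per3 and Bhlhe40 were lower in Clk/Clk liver, by up to 4.48-fold, while Per1 and Cry2 showed no called difference. 7 of 23 member probe sets were called (30.4%), against 8.6% of all tested. All 7 were lower, where 5.99% of all were lower and 2.61% higher. The median member difference was -0.18, beside 0.02 over all, and groups did not overlap for 13 of 23, against 40.5% of all.

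Per2 (1417602_at) read 6.09, 5.38 and 7.21 in the Clk/Clk mice, against 8.27 to 8.50 in treated wild type. Every Clk/Clk mouse was below every other mouse of the study, but the group spread widely (SD 0.923). The difference was -2.16 (SE 0.341, limma adjusted p = 0.00123). The second probe set (1457350_at) read 5.64, 5.29 and 6.21 and differed by -1.39 (SE 0.192, limma adjusted p = 5.89e-04). The dimmest (1417603_at) read 5.39, 5.37 and 5.69, nearer the filter level, and differed by -0.34 (limma adjusted p = 0.0736).

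Per3 (1421087_at) read 6.14, 6.14 and 7.35 in Clk/Clk mice, all under the lowest treated wild-type mouse at 8.0. It was lower by a difference of -1.61 (SE 0.26, limma adjusted p = 0.00144), 3.05-fold. 4 of its 6 probe sets were called, the others of these being 1458176_at at -1.15, 1441445_at at -0.98 and 1460662_at at -0.70. The last of these was not called without Clk/Clk mouse 1 (-0.49), treated wild-type mouse 1 (-0.68) or treated wild-type mouse 2 (-0.64). Some Clk/Clk values were under the filter level of their array, which can limit the size of a difference. These were mice 1 and 2 on 1441445_at (both 4.72) and mouse 1 on 1460662_at (4.82). Another (1442243_at) was lower by less than 1.5-fold (-0.49, limma adjusted p = 0.0381). The remaining one (1421086_at) had group means of 5.26 to 5.51 near the filter level and a difference of -0.01.

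Bhlhe40 read 8.65, 8.50 and 8.96 in the Clk/Clk mice, against 10.12, 11.37 and 10.31 in treated wild type. The Clk/Clk mice were close together and all more than 1 log2 unit below. The difference was -1.90 (SE 0.255, limma adjusted p = 5.14e-04), 3.73-fold. Ciart read 6.42, 6.01 and 6.38, below all other mice, with a difference of -0.68 (SE 0.245, limma adjusted p = 0.0683) that missed the threshold. It was called when untreated mouse 1 was left out (adjusted p = 0.0302) or when only the 2 groups were fitted (0.0486).

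Per1 read 6.79, 7.53 and 7.18 in Clk/Clk mice, spread over the range of the treated wild type, and differed by 0.14 (95% interval -0.32 to 0.61, limma adjusted p = 0.669). Cry1 read 6.89, 6.88 and 7.03, overlapping treated wild type only through mouse 3 of that group. Its difference of 0.52 (SE 0.164, limma adjusted p = 0.0411) was upward and under 1.5-fold. Without treated wild-type mouse 3 it was 0.75 (adjusted p = 9.46e-04) and called. Cry2 read 6.79, 6.87 and 7.06, and differed by -0.12 (95% interval -0.36 to 0.13, limma adjusted p = 0.496). Csnk1d ran from -0.04 to 0.18 over its 5 probe sets and Csnk1e from -0.30 to -0.06 over its 3, with none called.

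**Figure D3:**
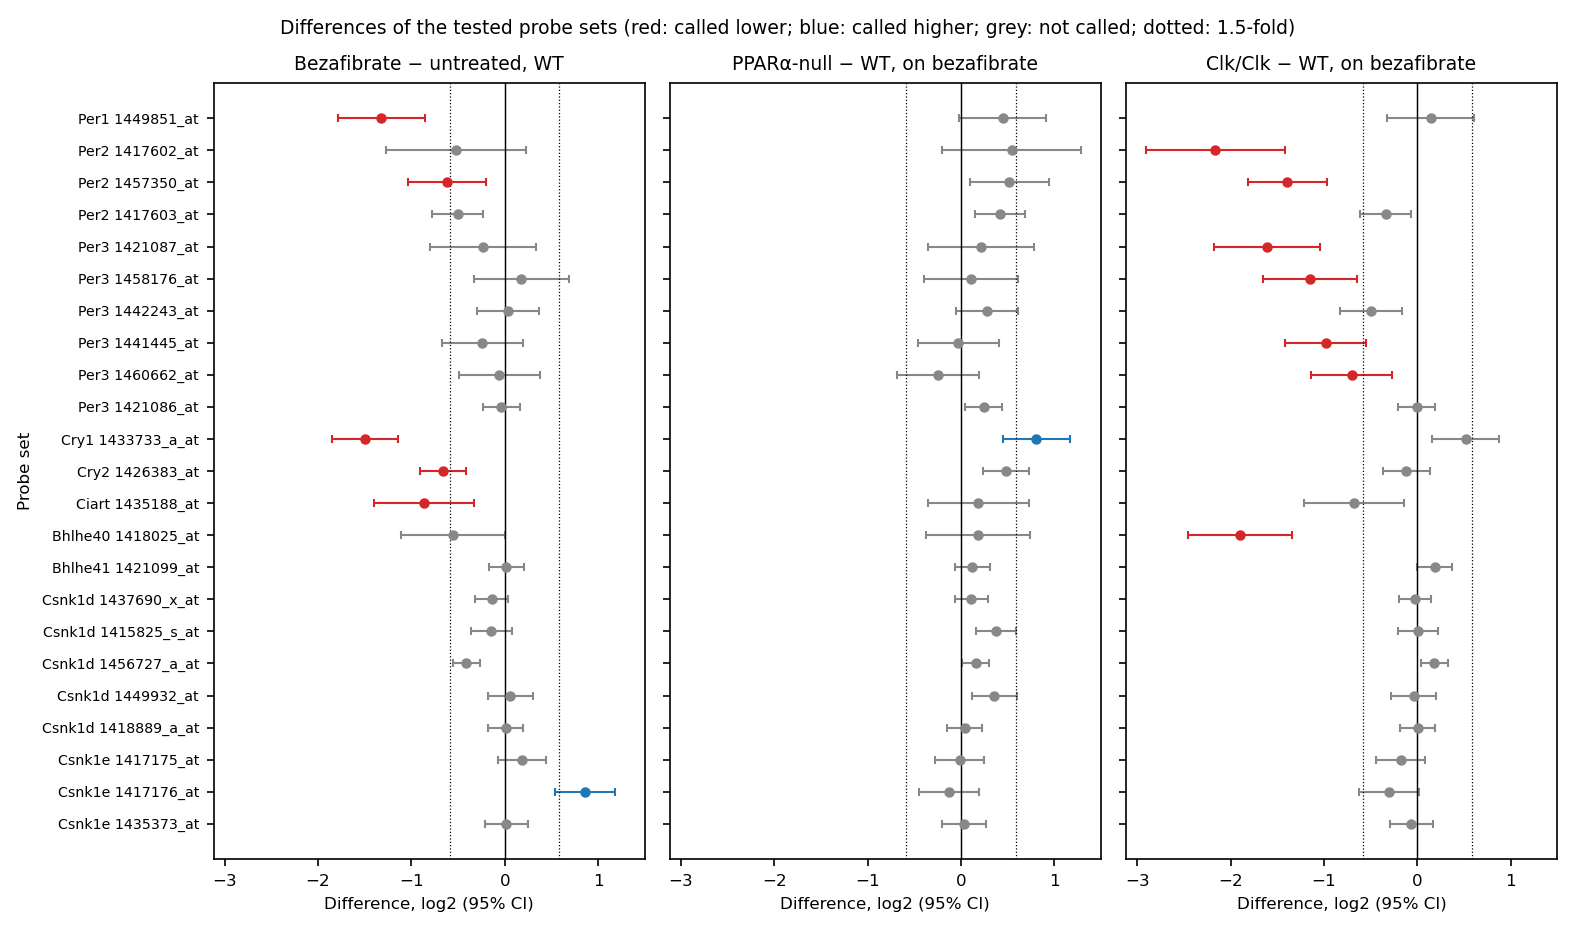
Difference (log2, x axis, with 95% interval) of each of the 23 tested probe sets (y axis) in the 3 main comparisons, with dotted lines at 1.5-fold. Cry1, Per1, Cry2, Ciart and a Per2 probe set are called lower with bezafibrate, Cry1 alone is called in null mice, and Per2, Per3 and Bhlhe40 probe sets are called lower in Clk/Clk mice.

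Of 10 Kupffer cell and macrophage markers 3 were lower in Clk/Clk than in treated wild type, Clec4f (-0.85), Cd5l (-0.82) and Cd68 (-0.72). Also lower were 1 of 7 stellate markers (Col3a1 -1.33) and 1 of 6 lymphocyte and granulocyte markers (Ptprc -0.87). The 1 tested blood marker, Alas2, was lower (-1.57), and 1 of 7 hepatocyte markers was higher (Cps1 0.87). No endothelial, cholangiocyte, adipocyte or pancreas marker was called.

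The Clk/Clk mice were not alike on these genes. Mouse 3 was the highest of the 3 on all 7 member probe sets called lower (100%), against 558 of 1697 (32.9%) of all probe sets called lower and 10188 of 28344 (35.9%) of those tested. The 7 probe sets read only 3 genes (Per2, Per3 and Bhlhe40), so they are not independent counts. Mouse 3 was also singled out in these same values, so the shares are a description and no test. For Per2 (1417602_at) the 3 mice lay -2.30, -3.01 and -1.18 from the treated wild-type mean, and for Per3 (1421087_at) -2.01, -2.01 and -0.80. Dbp, an E-box-driven output gene outside the members, read 4.97, 4.86 and 7.06 in the same order. Of all genes compared, its profile was the most like Per3 (r = 0.979). It is 1 of 5 listed output genes called lower in Clk/Clk, and the single mice of the others are not given here. Without mouse 3, 8 member probe sets were lower in place of 7, with Per2 (1417602_at) at -2.66, Per3 (1421087_at) at -2.01 and Bhlhe40 at -2.03. The labels give no property that sets this mouse apart.

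**Figure D4:**
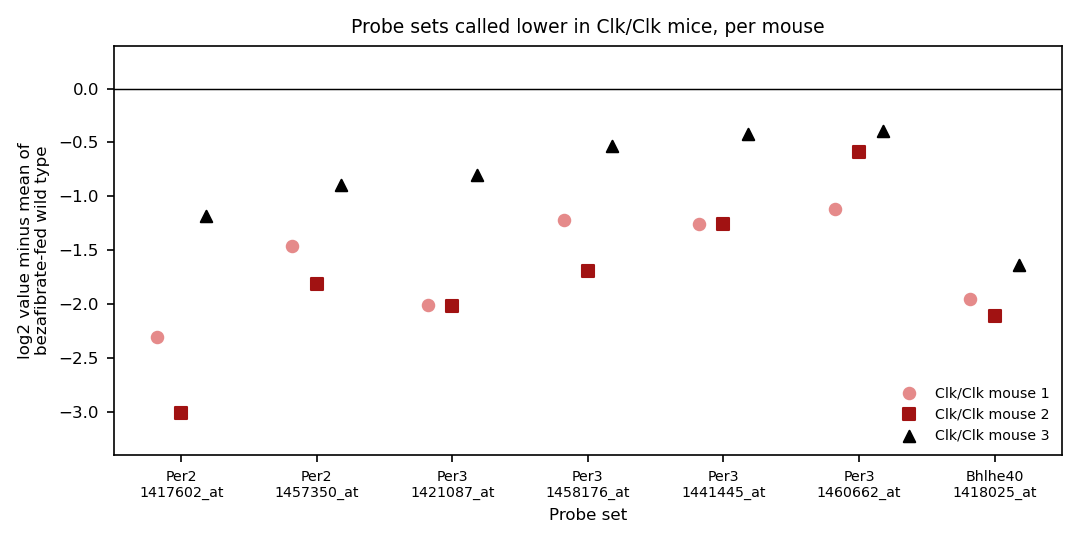
Log2 value of each Clk/Clk mouse minus the mean of bezafibrate-fed wild type (y axis) for the 7 probe sets called lower (x axis). Mouse 3 lies nearest to 0 on each, for example at -1.18 for Per2 (1417602_at) where mouse 2 lies at -3.01.

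Between the mutants, both on the drug, 10 of 23 member probe sets were lower in Clk/Clk than in null mice and none higher (43.5%, against 14.5% called, 7.3% lower and 7.21% higher over all). Groups did not overlap for 14 of 23, against 48.8%. Per2 was lower on all 3 probe sets, by differences of -2.71 (limma adjusted p = 9.33e-05), -1.91 (1.64e-05) and -0.75 (6.59e-04). Per3 was lower on 4, from -1.82 to -0.77, and Bhlhe40 by -2.08 (limma adjusted p = 7.91e-05). Cry2 (-0.60, limma adjusted p = 0.00157) stood just past 1.5-fold and was under it without Clk/Clk mouse 1 or 2 or null mouse 1 or 2. Ciart (-0.86, limma adjusted p = 0.0172) was not called without Clk/Clk mouse 2 (adjusted p = 0.0688) or null mouse 1 (0.0705). Cry1 (-0.29, 95% interval -0.64 to 0.07) and Per1 (-0.30, 95% interval -0.77 to 0.16) were not called. In the same contrast 5 of 10 Kupffer cell and macrophage markers were lower (median over the list -0.58), from Clec4f at -0.92 to Adgre1 at -0.67. Also lower were 1 of 7 stellate markers (Col3a1 -0.89) and the 1 tested blood marker (Alas2 -1.42). Of 6 lymphocyte and granulocyte markers S100a8 was lower (-2.08) and S100a9 higher (1.19). Of 3 tested adipocyte or pancreas markers 1 was higher (Pnliprp1 3.09).

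Against untreated wild type the treated Clk/Clk mice were lower on 12 of 23 member probe sets and higher on none (52.2%, against 19.8% called, 9.83% lower and 9.95% higher over all). Groups did not overlap for 16 of 23, against 53.9%, and the median member difference was -0.76, beside -0.00 over all. 7 genes held these probe sets, namely Per1, Per2, Per3, Cry1, Cry2, Ciart and Bhlhe40. On the brightest probe sets, Per2 differed by -2.69, Bhlhe40 by -2.46 (5.49-fold, limma adjusted p = 1.34e-05) and Per3 by -1.84. Ciart differed by -1.54, Per1 by -1.18, Cry1 by -0.98 and Cry2 by -0.78. Of the markers, 3 of 7 stellate (Col3a1 -1.23, Hand2 -0.87, Reln -0.64) and 2 of 7 hepatocyte (Tat -1.24, Hnf4a -0.62) were lower. So were 1 of 10 macrophage (Clec4f -0.70), 1 of 8 endothelial (Clec4g -0.73) and the 1 tested blood marker (Alas2 -2.34). Of 3 tested adipocyte or pancreas markers Cela1 was lower (-1.85) and Pnliprp1 higher (2.74). Of 3 tested cholangiocyte markers 1 was higher (Sox9 0.64). Drug and genotype change together here.

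The order of the group means differed between genes. For Per1 it ran from untreated (8.35) through null (7.47) and Clk/Clk (7.17) to treated wild type (7.03), and no called difference separated the 3 treated groups. For Cry1 it ran from untreated (7.91) through null (7.22) and Clk/Clk (6.94) to treated wild type (6.42). There untreated and null differed, null and Clk/Clk did not, and Clk/Clk and treated wild type differed by less than 1.5-fold. For Cry2 it ran from untreated (7.69) through null (7.51) and treated wild type (7.02) to Clk/Clk (6.91). No neighbours were called as different there, and null and treated wild type differed by 0.48, under 1.5-fold. Ciart ran from untreated (7.81) through null (7.14) and treated wild type (6.95) to Clk/Clk (6.27), with no called difference between neighbours. For Per2 (1417602_at), Per3 (1421087_at) and Bhlhe40 the 3 groups with normal Clock were not called as different from each other. Their means were 8.39 to 8.93, 8.15 to 8.38 and 10.60 to 11.16, and Clk/Clk stood below at 6.23, 6.54 and 8.70. For Per2, Per3 and Bhlhe40 a drug difference is not excluded by this. The interval given above for Per3 (1421087_at) in wild type spans changes in either direction. On Per2 (1417602_at) every treated wild-type mouse lay below every untreated one. Another Per2 probe set (1457350_at) was called lower with bezafibrate in wild type (-0.62), a call lost when certain single mice were left out. Bhlhe40 was called lower there without treated mouse 2 (-0.94).

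**Figure D5:**
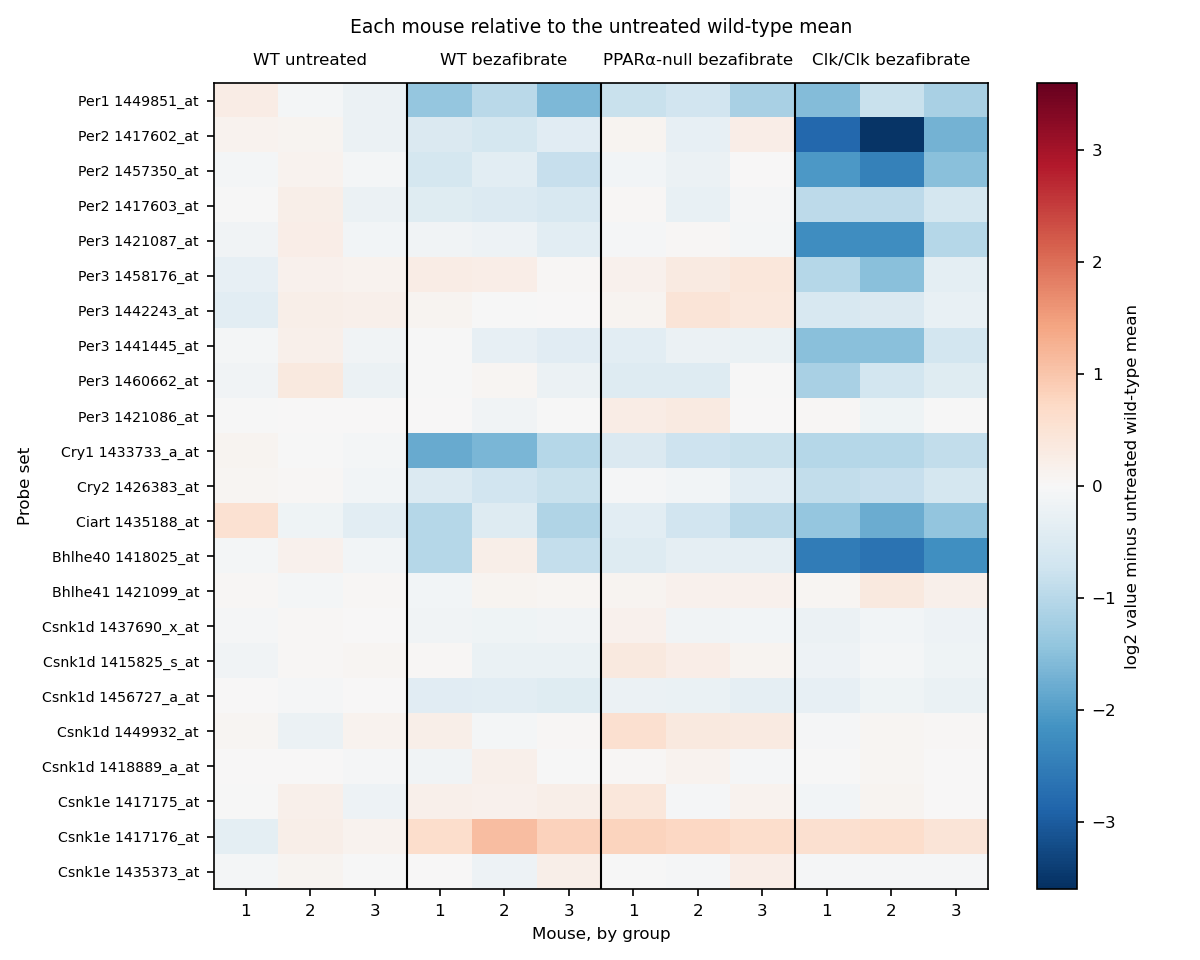
Log2 value of each mouse minus the untreated wild-type mean (colour) for the 23 tested probe sets (y axis) in the 12 mice by group (x axis). The brightest probe sets of Per2, Per3 and Bhlhe40 are lowest in the 3 Clk/Clk mice, with mouse 3 closer to the other groups, whereas Cry1 and Per1 are below untreated in all treated groups.

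Profiles over the 12 mice were compared by Pearson correlation as a description only, since all points share the 4 group means. Per2 (1417602_at) and Per3 (1421087_at) correlated at 0.970, and at 0.791 after the group means were removed, where Clk/Clk mouse 3 weighs on both. Among 13597 other genes, the 3 profiles most like Per3 were Dbp (r = 0.979), Per2 (0.970) and Cndp2 (0.956), and those most like Per2 were Tnnc1 (0.971), Per3 (0.970) and Tspan4 (0.959). Per1 was most like Elf2 (0.964), Ercc2 (0.963) and Tmem216 (0.961). Cry1 was most like Scnn1a (0.974), Kifc2 (0.971) and Cspp1 (0.969), and Cry2 like Ip6k1 (0.970), Gsn (0.969) and Adgrl2 (0.968). Ciart was most like Bgn (0.966), Nck1 (0.940) and Noct (0.937), and Bhlhe40 like Tmem107 (0.987), Phf20 (0.979) and Cdk5rap3 (0.978). For Csnk1e, by its brightest probe set, which was not the one called, they were Eif4g3 (0.924), Klhl20 (0.875) and Glrx3 (0.795).

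The rest of the clock was followed through gene lists, each gene by its brightest probe set. The list counts here and in the following paragraphs stand beside these shares over all tested probe sets. With bezafibrate 8.14% were lower and 11.2% higher. In null against treated wild type 7.42% were lower and 4.99% higher, and in Clk/Clk against treated wild type 5.99% and 2.61%. Whether a list departs from these shares was not tested. Of the positive limb and secondary loop, 7 of 8 genes were tested. With bezafibrate 2 were lower, Nfil3, a D-box repressor (-1.91), and Arntl (-0.73), and none was higher. Without treated mouse 2 only 1 was lower. In null mice Nfil3 (1.24) and Arntl (0.72) were higher than in treated wild type, and 1 was higher when null mouse 1, or else treated wild-type mouse 2, was left out. In Clk/Clk mice 3 were higher, Arntl (2.66), Clock (1.08) and Nfil3 (1.06). 1 was lower, Nr1d2, a repressor of Arntl (-0.85), and none without Clk/Clk mouse 1 or treated wild-type mouse 2. The list's medians were -0.42, -0.01 and 0.21, beside -0.02, 0.02 and 0.02 over all probe sets.

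Of the E-box and D-box output genes all 7 were tested. With bezafibrate 5 were lower and none higher. Among them were Noct, the gene of the circadian protein nocturnin (-2.02), Usp2, a deubiquitinase (-1.64), and Nampt, an enzyme of NAD synthesis (-1.02). Wee1, a cell cycle kinase, was 0.55 higher and under 1.5-fold, while 1 gene of the list was called higher without treated mouse 1, treated mouse 3 or untreated mouse 2. In null mice 2 were higher than in treated wild type, Usp2 (1.43) and Hlf (0.75). Without null mouse 3, 1 was lower there. In Clk/Clk mice 5 were lower than in treated wild type, among them Dbp (-4.45), Usp2 (-3.25) and Wee1 (-1.23). The list's medians were -0.99, 0.47 and -1.23.

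Genes that act on PER and CRY proteins were mostly without a call. Of 21 tested kinases, phosphatases and ubiquitin ligase genes, 1 rose and 1 fell with bezafibrate. These were Dtl, a ubiquitin ligase receptor also known from the cell cycle (2.41), and Fbxl21, which targets cryptochromes (-0.64, with a treated mean of 4.36, under the filter level). The fall was not called without treated mouse 3 or untreated mouse 1. In null mice Fbxl21 was higher (0.72) and Mapk8, a stress kinase, lower (-0.59), the latter lost when null mouse 1 or mouse 2 of treated wild type was dropped. In Clk/Clk mice 1 was lower, again Dtl (-2.53), and 2 without Clk/Clk mouse 1 or treated wild-type mouse 3. Of 17 tested PER complex and corepressor partners, 4 rose with bezafibrate, including Timeless (2.12) and Ezh2 (0.69), which also act in DNA replication and chromatin. 2 rose without treated mouse 1 or 2 or any 1 untreated mouse. 2 were lower in null mice (Timeless -1.02, Prkca -0.95), and 1 when any null mouse, or mouse 1 or 2 of treated wild type, was dropped. 3 were lower in Clk/Clk mice, Timeless (-2.14), Tipin (-1.08) and Ezh2 (-0.89), while 1 was higher without Clk/Clk mouse 2. The medians of the modifier list were 0.06, -0.12 and 0.01, and those of the partner list -0.04, 0.00 and 0.05.

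Per1 also responds to glucocorticoid and to CREB signalling, so 12 genes known for such responses were listed. With bezafibrate 4 were lower and 1 higher. The lower ones were Tsc22d3 (-2.22), Zbtb16 (-1.98), Fkbp5 (-1.29) and Klf9 (-0.87). The other genes of the list, Sgk1, Dusp1 and Cebpd among them, were not called lower. Without treated mouse 3, 3 genes of the list were higher. In null mice Zbtb16 (1.58) and Tsc22d3 (1.49) were higher than in treated wild type, and Egr1 (-2.97) and Fos (-1.86), early genes, were lower. In Clk/Clk mice 1 was lower (Sik1, -0.99) and 2 higher, Sgk1 (0.65) and Klf9 (0.64). None was higher without Clk/Clk mouse 2 and 1 without treated wild-type mouse 1 or 2. The list's medians were -0.38, 0.05 and 0.14. Any link between these genes, or the signals they respond to, and the Per1 values was not tested.

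The summed log2 signal of the marker lists also differed between groups, and it is given here in the order untreated wild type, treated wild type, null and Clk/Clk. For the 10 Kupffer cell and macrophage markers, all above the filter, it was 12.60 to 12.76, 12.66 to 13.15, 12.73 to 12.89 and 12.08 to 12.44, so that the Clk/Clk mice lay below the rest. For the 7 stellate cell markers it was 11.46 to 11.82, 11.28 to 11.45, 11.06 to 11.35 and 10.96 to 10.99. For the 8 endothelial markers it was 12.05 to 12.07, 11.39 to 11.83, 11.79 to 11.92 and 11.54 to 11.72. The untreated mice lay above the others on both of these lists. The 6 lymphocyte and granulocyte markers gave 8.85 to 9.23, 9.21 to 10.47, 9.38 to 10.20 and 9.08 to 9.33. The 4 cholangiocyte markers, 1 of them under the filter, gave 7.62 to 7.71, 7.67 to 7.97, 7.74 to 7.89 and 7.57 to 7.87. These ranges overlapped between groups, except that null lay above untreated wild type. The 2 blood markers, 1 under the filter, gave 7.89 to 8.59, 7.18 to 7.98, 7.27 to 7.39 and 5.69 to 6.51, lowest in Clk/Clk. The 4 adipocyte or pancreas markers, 1 under the filter, gave 10.27 to 10.36, 9.0 to 9.23, 8.59 to 9.01 and 8.99 to 9.23, highest in untreated mice.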

How the data were processed

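The authors deposited log2 expression values per probe set for 12 arrays, and per the submitters' processing notes RMA was used, with version and settings not given in the sources used here. RMA gives the arrays a common distribution, so a shift shared by all genes would not show. Per the labels, 250 ng of total RNA per liver was used. Probe sets took gene symbols from the platform annotation: 34945 had exactly 1, 932 several and 9160 none. All 12 columns of values were used.

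A probe set was kept if, on 3 or more arrays, it was at or above that array's 40th percentile (28344). They were fitted with limma 3.58.1 in R 4.3.3 (lmFit, eBayes) as 4 group means without covariates and with 8 residual degrees of freedom. p-values were adjusted by Benjamini-Hochberg over all probe sets tested, and a call needed an adjusted p under 0.05 and at least 1.5-fold. Precision is limited by the number of arrays. The fit was tested on simulated data. Lists used the brightest probe set of a gene. Beyond the 10 members, list genes are named from the up to 4 called ones with the smallest adjusted p per main comparison, and likeness is given as the 3 closest profiles of each member called. Wee1 with bezafibrate, and markers in the comparisons other than the main ones, were named after their values were seen. Alternatives were another filter, 1 probe set a gene, probe sets without shared-probe suffixes, array weights, other fits, no fold limit and leaving out each array. Members and lists were chosen with earlier results of these data known.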

Additional observations from a re-analysis of the deposited data

How the results depend on the processing

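Of 2904 values of single member probe sets under alternatives, 2855 stayed on their side of the call, 20 lost it and 29 gained it. The sign changed in 62, of differences no larger than 0.18, and in 0 of the 835 values of called probe sets. With 1 probe set per gene, members called higher with bezafibrate came to 0, lower in Clk/Clk against wild type to 3, lower in Clk/Clk against null to 5, higher in treated null against untreated to 0 and lower in treated Clk/Clk against untreated to 7, since fewer probe sets were tested. Without probe sets of shared-probe suffixes, which include Cry1, 0 were higher in null and 1 was lower in treated null against untreated. With no fold minimum, 5 were higher in null, 1 in Clk/Clk against wild type, 2 in treated null against untreated and 1 in treated Clk/Clk against untreated. Leaving out 1 mouse gave 3 to 6 lower and 1 to 1 higher with bezafibrate, 1 to 2 higher in null, 6 to 8 lower and 0 to 1 higher in Clk/Clk against wild type, and 8 to 11 lower against null. Against untreated it gave 0 to 3 lower and 0 to 1 higher in treated null, and 11 to 13 lower and 0 to 1 higher in treated Clk/Clk. Replicate numbers did not pair the mice: the correlation of same-numbered deviations ran from -0.0941 to 0.0870 over 18 pairs, 0 of them over 0.1, and 4 of 12 mice correlated best with their own number. The fit with the replicate number as a block gave the same counts of member calls, 5 lower and 1 higher with bezafibrate and 7 lower in Clk/Clk. Signals near the filter (Bhlhe41, 1 Per3 and 1 Csnk1e probe set) can hide differences. With array weights Cry2 in Clk/Clk against null was -0.58, under 1.5-fold.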
